A study of Mus musculus with 4 samples.

Results

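The cadherin superfamily of the developing mouse retina was examined at postnatal day 8 in wild-type littermates (WT) and in Opn4-DTA/DTA mice. The members were every row of the deposited table with a gene symbol of Cdh followed by a digit, or starting with Pcdh, apart from Cdh2. This rule found 93 of 23336 genes, of which 22 were cadherins and 71 protocadherins. Of these, 88 had a mean of at least 10 normalized counts over both groups and are described here, 20 of them cadherins and 68 protocadherins.

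RNA of whole retinas was compared in 4 libraries on the C57/Bl6 background, 2 from WT littermates and 2 from Opn4-DTA/DTA animals. The latter are homozygous for diphtheria toxin A, a protein that blocks translation, placed at Opn4, the melanopsin gene of the intrinsically photosensitive ganglion cells, so that the toxin is under the control of that gene. The tissue label speaks of dissociated cells and the series design of whole extracts. Whether libraries within a genotype stem from different animals is not stated in the labels, so the p-values reflect differences among the sequenced libraries alone, and that spread may be technical. In whole tissue, fewer cells of a type and less RNA per cell cannot be told apart.

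Cadherins are membrane proteins with repeated calcium-binding domains outside the cell. Classical cadherins bind like cadherins on the neighbouring cell and are anchored to actin by catenins. The clustered protocadherins are read from 3 gene arrays, alpha, beta and gamma, each with its own set of promoters. A neuron uses a few of these promoters, and the resulting set of proteins lets branches of one cell recognise and avoid each other. In the mouse retina, gamma protocadherins are known for self-avoidance of starburst amacrine dendrites and for survival of interneurons, and type II cadherins for matching axons and dendrites in layers of the inner plexiform layer.

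The deposited values are means over the libraries of a group, and the count of each library was recovered from them. The recovered libraries carry no label of their own, and within a group library a is the one with the larger size factor and library b the one with the smaller. Values below are normalized counts (counts divided by the authors' size factor) in the order WT library a, WT library b, Opn4-DTA/DTA library a and Opn4-DTA/DTA library b. Total counts were 28726275, 22202382, 60833968 and 32032295 in that order, and 3 counts equal 3.48, 4.59, 1.64 and 3.07 normalized counts. Opn4 itself was at 428, 246, 0.546 and 0 normalized counts, so the targeted gene was near 0 in both libraries labelled Opn4-DTA/DTA. The members together held between 0.203% and 0.213% of all counts of a library, with no gap between the groups.

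No cadherin or protocadherin passed the test between the genotypes. Of 15003 genes tested with limma on log2(normalized count + 1), 3 passed an adjusted p of 0.05, which is 0.02% of all genes, and 0 of the 88 members did, with a lowest adjusted p of 0.9997. At an unadjusted p under 0.05 there were 249 genes, or 1.66% of all, and 1 member, Pcdha1, or 1.14% of the members. By the authors' deposited table, 17 genes, or 0.113%, had an adjusted p under 0.05, again with 0 members among them.

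Counts of members whose libraries did not overlap between the groups were close to those of all genes. Both Opn4-DTA/DTA libraries lay above both WT libraries in 10 members (11.4%), against 11.2% of all genes. They lay below both WT libraries in 13 members (14.8%), against 12.3% of all genes. In the other 65 members the groups overlapped. The log2 fold change (Opn4-DTA/DTA over WT, on the log2(normalized count + 1) scale throughout) was above 0 in 35 members and below 0 in 53, with quartiles of -0.13 and 0.07 around a median of -0.03, and the quartiles over all genes were -0.07 and 0.07. The sign of the members' median was not stable: it was 0.01 with Opn4-DTA/DTA library b left out, -0.07 with library a of that group left out, and 0.0024 with scaling by library totals. The 95% interval of the fold change stayed within 2-fold in both directions in 84 of 88 members, against 13500 of 15003 genes. The exceptions were Cdh15, Pcdha1, Pcdha8 and Pcdhgb8. For 60 members it stayed within 1.5-fold.

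**Figure D1:**
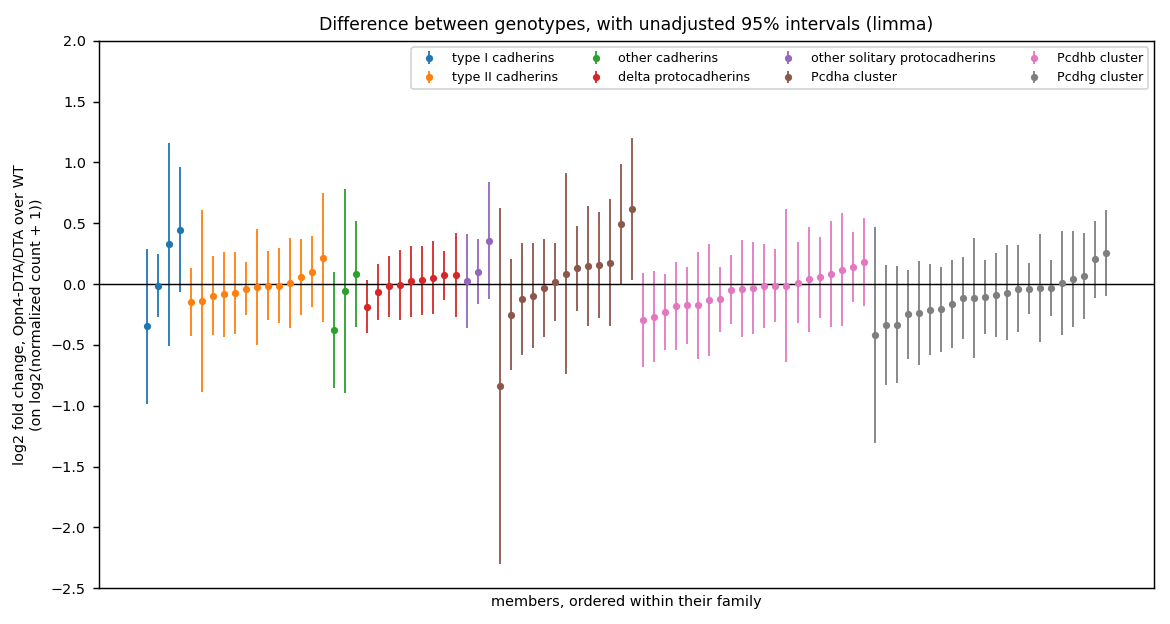
Log2 fold change of each of the 88 members (Opn4-DTA/DTA over WT, on the log2(normalized count + 1) scale) by family, with the 95% interval from limma. All but 1 of the intervals cross 0, the exception being Pcdha1, and the family medians lie between -0.10 and 0.16.

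The start regions of 3 members are shown because results below turn on them: Pcdh17, the solitary protocadherin with the lowest p, and the pair Pcdh15 and Cdh23, whose proteins form the tip link of sensory hair cells in the inner ear. The windows run from 250 bases before to 50 bases after the annotated start, read 5′ to 3′ along the gene (RefSeq, GRCm38.p6). They are chr14:84443313-84443612 on the plus strand for Pcdh17, chr10:73821617-73821916 on the plus strand for Pcdh15 and chr10:60696441-60696740 on the minus strand for Cdh23. Capitals mark a match, found on either strand, to 1 of 3 motifs searched: TATAAA (the TATA box), GGGCGG (the GC box) and TAATCC (the core that CRX, a photoreceptor factor, is known to bind).
Pcdh17: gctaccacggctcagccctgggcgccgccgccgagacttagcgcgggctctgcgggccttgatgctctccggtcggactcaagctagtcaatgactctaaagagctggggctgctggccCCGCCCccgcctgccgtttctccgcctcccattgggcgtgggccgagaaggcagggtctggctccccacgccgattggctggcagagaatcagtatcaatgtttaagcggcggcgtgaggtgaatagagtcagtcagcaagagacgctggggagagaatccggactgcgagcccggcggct
Pcdh15: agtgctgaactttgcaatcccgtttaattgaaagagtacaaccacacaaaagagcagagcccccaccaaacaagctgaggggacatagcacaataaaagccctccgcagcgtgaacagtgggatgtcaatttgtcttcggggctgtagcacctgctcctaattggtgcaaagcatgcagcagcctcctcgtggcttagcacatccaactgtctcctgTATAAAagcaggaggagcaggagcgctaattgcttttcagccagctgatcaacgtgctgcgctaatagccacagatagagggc
Cdh23: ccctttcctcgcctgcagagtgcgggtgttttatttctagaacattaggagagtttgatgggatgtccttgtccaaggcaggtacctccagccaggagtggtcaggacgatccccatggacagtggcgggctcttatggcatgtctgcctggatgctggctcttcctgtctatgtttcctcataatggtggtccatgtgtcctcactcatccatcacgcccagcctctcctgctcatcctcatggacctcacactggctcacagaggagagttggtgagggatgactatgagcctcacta

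The Pcdh17 window held GGGCGG on the opposite strand, beginning 131 bases before the start, and the Pcdh15 window held TATAAA 33 bases before it. The Cdh23 window held none of the 3 motifs. Members on chromosome 18, among them all clustered protocadherins, Pcdh1 and Pcdh12, were left out of the motif search. Over the 25 windows that 22 of the remaining member genes had in the RefSeq table, TATAAA was in 8% (the other being Pcdh8). GGGCGG was in 36% of these windows and TAATCC in 8%. Over all 32851 windows of the table the shares were 13.6%, 35.7% and 7.06%. These matches describe letters in the windows only. None of the motifs is contained in another. The 25 member windows searched held a median of 14 CG dinucleotides against 7 over all windows.

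Of the type I classical cadherins under the rule, which leaves out Cdh2, all 4 were measured. Cdh4 had by far the highest count of these 4. Cdh4 (R-cadherin, named for the retina) was at 3543, 3128, 3515 and 3099 normalized counts, and the groups overlapped. Its log2 fold change was -0.01 (SE 0.11, limma unadjusted p = 0.913), with a 95% interval from -0.27 to 0.24; scaling by library totals gives 0.02. Cdh1 (E-cadherin, the cadherin of epithelial junctions) was at 66.1, 79.6, 98.3 and 100.3, so that both Opn4-DTA/DTA libraries lay above both WT libraries. That difference, 0.45 on the log2 scale (SE 0.22), had an unadjusted limma p of 0.0787 and did not pass the adjusted test. Cdh15 (M-cadherin, known from muscle) was low, between 21.4 and 39.9, and overlapped.

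Cdh3 (P-cadherin), which is known from the pigment epithelium and other epithelia, had 1 library apart. The gene lies on chromosome 8 from 106510891 to 106556908 (mm10, as deposited) and was at 289, 161, 170 and 168 normalized counts. WT library a was high, and the remaining WT library lay slightly below both Opn4-DTA/DTA libraries. The log2 fold change was -0.35 (SE 0.27, limma unadjusted p = 0.238). Without WT library b the log2 fold change of Cdh3 was -0.77, and without WT library a it was 0.07. Each of these values rests on a lone WT library.

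The 13 type II cadherins were all measured, and 12 of them overlapped between the groups. The other 1, or 7.69%, was higher in Opn4-DTA/DTA, against 11.2% of all genes. Cdh11 (known from bone-forming and other mesenchymal cells) was at 4012, 4276, 3906 and 4158 normalized counts, with a log2 fold change of -0.04 (SE 0.09). Cdh8, which in mouse retina marks and guides a type of OFF bipolar cell, was at 1883, 2231, 1957 and 1745. Cdh9, which does the same for a type of ON bipolar cell, was at 125, 138, 115 and 145. Neither bipolar cadherin separated the genotypes, with log2 fold changes of -0.15 (SE 0.12) for Cdh8 and -0.02 (SE 0.20) for Cdh9, the latter 0.01 with scaling by library totals. For Cdh8 it was -0.27 with WT library a left out and -0.027 with WT library b left out. Summed bipolar markers were at 79922, 90999, 73284 and 78592, and all 10 of them had a log2 fold change below 0; the part of bipolar cells in the values for Cdh8 and Cdh9 was not tested. Cdh6, which in mouse marks ganglion cells that project to non-image-forming targets and direction-selective circuits, was at 491, 519, 556 and 527. Both Opn4-DTA/DTA libraries of Cdh6 lay above WT by a small step, 0.10 on the log2 scale (SE 0.12, limma unadjusted p = 0.442).

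The remaining type II members were expressed at intermediate or low levels and overlapped. Cdh20 (983 ± 111 normalized counts in WT, SD, n = 2, and 971 ± 15.1 in Opn4-DTA/DTA), Cdh22 (764 ± 139 and 714 ± 26.1) and Cdh18 (673 ± 99.6 and 638 ± 49.4) differed by less than the SD of the WT libraries. Cdh12, Cdh24, Cdh7 and Cdh10 had log2 fold changes between -0.09 and 0.06. The lowest of the family, Cdh19, known from glial cells of peripheral nerves, was at 30.2, 33.7, 24.6 and 33.8. The deposited table gives Cdh7 the location of Cdh20, and the RefSeq table lists Cdh7 among the older names of Cdh20, so which locus the Cdh7 row counts is uncertain.

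The direction of Cdh5 (VE-cadherin), the cadherin of junctions between endothelial cells, depended on a single library. The gene lies on chromosome 8 from 104101625 to 104144502 (mm10, as deposited) and was at 1322, 771, 1205 and 1140 normalized counts. WT library b was low, while WT library a lay above both Opn4-DTA/DTA libraries. With all libraries the log2 fold change was 0.22 (SE 0.23, limma unadjusted p = 0.372). Without WT library a it was 0.60, and without WT library b it was -0.17. Cdh13 (T-cadherin, which is attached to the membrane by a lipid anchor and has no catenin-binding tail) had the same order, at 1160, 771, 1030 and 973.

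The spread between the WT libraries in these members lay beside a spread in several lists of marker genes. The ratio of WT library a to WT library b was 1.80 for Cdh3, 1.71 for Cdh5 and 1.44 for Pcdh12, a protocadherin of endothelial cells. Summed pigment epithelium markers were at 12614, 5621, 7583 and 5983 normalized counts, and all 10 of them were higher in WT library a than in WT library b. Summed vessel markers were at 19291, 18330, 19700 and 18942, with 8 of the 9 higher in WT library a. Kdr, the most abundant of them, ran the other way, and the other 8 summed to 9348, 6682, 8578 and 9130, a ratio of 1.40 between the WT libraries. Astrocyte markers summed to 2623, 1448, 1909 and 2091 (4 of 4 higher in WT library a) and ganglion cell markers to 81930, 55780, 69022 and 70172 (11 of 12). Other lists were mixed, from 0 of 5 horizontal and 1 of 10 bipolar markers higher in WT library a to 7 of 8 rod and 6 of 6 microglia markers. Over all genes the median log2 ratio of WT library a to b was 0.0021. No marker on these lists was at 0 in every library. The part of these cell types in the results for Cdh3, Cdh5, Cdh13 and Pcdh12 was not tested.

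**Figure D2:**
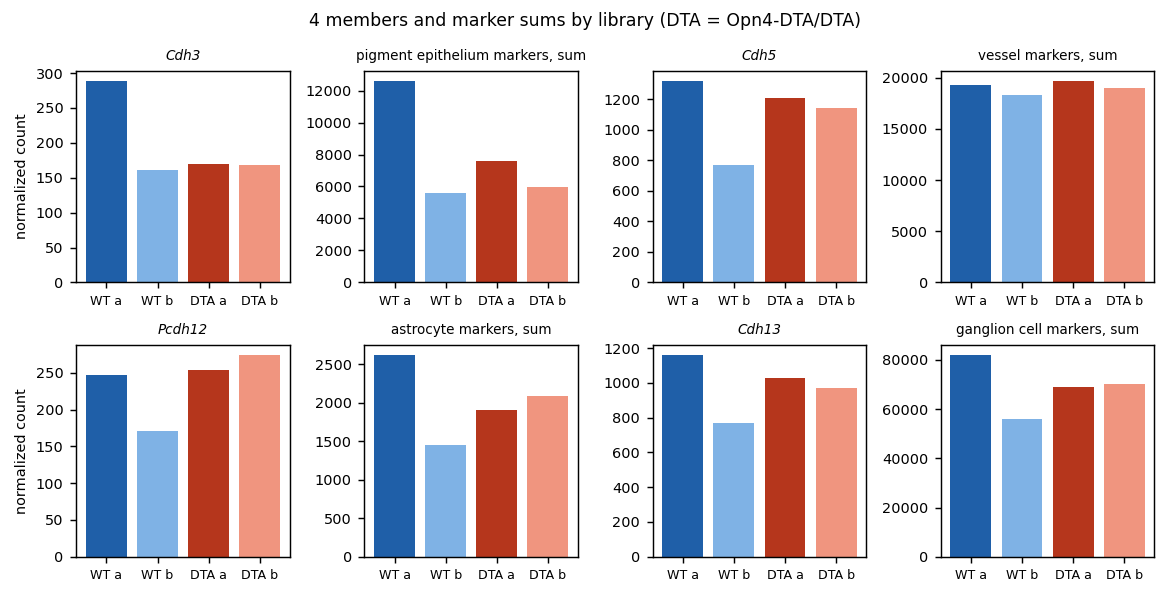
Normalized counts per library (bars from 0) of Cdh3, Cdh5, Pcdh12 and Cdh13 and of 4 summed marker lists. WT library a stands above WT library b in every panel, by 1.80-fold for Cdh3 but only as 19291 to 18330 for the vessel sum. The Opn4-DTA/DTA libraries lie between them except in 2 panels. For Pcdh12 both lie above both WT libraries, and for the vessel sum Opn4-DTA/DTA library a does. Of lists not drawn, the bipolar and horizontal sums were higher in WT library b, and the rod and microglia sums in WT library a.

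The delta protocadherins are solitary genes whose proteins act in axon growth and synapse formation. The tails of some of them can recruit the WAVE actin regulator. The delta genes had the lowest median SE of the families (0.12). All 9 were described, and all 9 had a 95% interval within 1.5-fold in both directions. Pcdh10 had the highest count of them, at 5600, 5552, 5979 and 5740 normalized counts. Its Opn4-DTA/DTA libraries lay above WT by a log2 fold change of 0.07 (SE 0.09, limma unadjusted p = 0.440). Pcdh7 was at 4025, 3479, 4184 and 3448, with library a above library b in each group and no gap between genotypes. Pcdh9 (2515, 2368, 2431 and 2230) and Pcdh19 (1831, 1953, 2134 and 1752), the latter an X-linked gene of human epilepsy, also overlapped. Pcdh8, Pcdh1, Pcdh18 and Pcdh11x had log2 fold changes between -0.02 and 0.08.

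Pcdh17, a delta protocadherin of axons and presynaptic sites, agreed closely within groups. It was at 2037, 2031, 1785 and 1787 normalized counts, on chromosome 14 from 84443563 to 84537060 (mm10, as deposited). Both Opn4-DTA/DTA libraries were lower than both WT libraries. At 1755, 1327, 3270 and 1746 counts, the libraries of a group lay closer together than counting error alone gives on average. The spread within the groups is therefore too small a yardstick for the gap between them. The log2 fold change was -0.19 (SE 0.09, 95% interval -0.40 to 0.03), with a limma unadjusted p of 0.0815; limma's SE also draws on the spread of other genes at this level. In the authors' deposited table its unadjusted p was 0.0281, the lowest of the members there, and it did not pass their adjusted threshold. Its direction was the same under each scaling. With 1 library left out the log2 fold change ran from -0.189 to -0.185, and with groups that do not overlap the direction could not turn.

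Of the 3 other solitary protocadherins, 1 had groups that did not overlap, with Opn4-DTA/DTA higher, against 11.2% of all genes in that direction. Pcdh12 was at 247, 171, 253 and 274 normalized counts, above WT in both Opn4-DTA/DTA libraries by 0.36 on the log2 scale (SE 0.21, limma unadjusted p = 0.126), with WT library b again the low one. The difference was 0.092 with WT library b left out and 0.62 with WT library a left out. Pcdh20 was at 205, 240, 221 and 231 and overlapped.

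The tip link pair was measured at very different levels. Pcdh15, whose human gene is mutated in Usher syndrome with deafness and retinal degeneration, was at 5442, 6631, 6511 and 6388 normalized counts. WT library a was the low one, and the log2 fold change was 0.10 (SE 0.11, limma unadjusted p = 0.395). Its partner Cdh23 was at 108, 113, 89.0 and 80.8, with both Opn4-DTA/DTA libraries below both WT libraries. The log2 fold change of Cdh23 was -0.38 (SE 0.20, 95% interval -0.85 to 0.10) with a limma unadjusted p of 0.103. Per kilobase of exons that belong to the gene alone, Pcdh15 stood at 389 normalized counts and Cdh23 at 8.79. The length used for Pcdh15 includes bases outside its deposited location, so its value may be too low. Cdh26, the other low cadherin of this mixed group, was at 19.7, 16.8, 17.5 and 17.4.

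**Figure D3:**
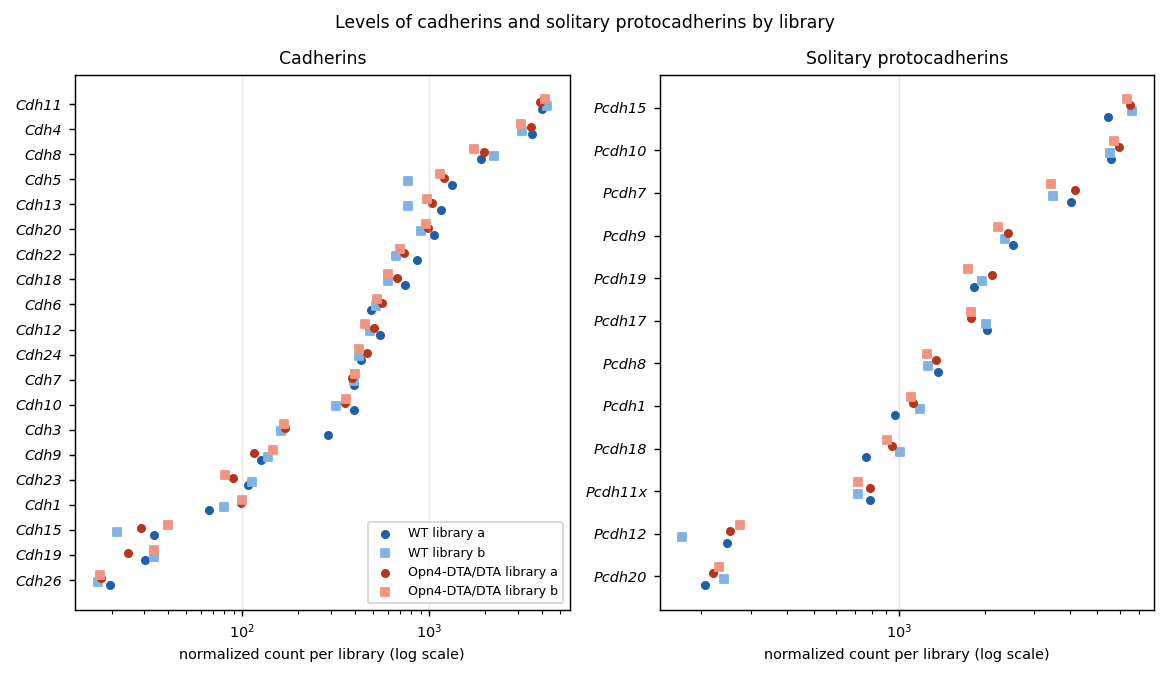
Normalized counts per library (log axis) of the described cadherins and solitary protocadherins, with 1 point per library and colours for the groups. Levels span from about 17 for Cdh26 to 6631 for Pcdh15, and only Pcdh17, Cdh1, Cdh6, Cdh23, Pcdh10 and Pcdh12 have groups that do not overlap. Over all genes the groups did not overlap in 11.2% with Opn4-DTA/DTA higher and in 12.3% with it lower.

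The clustered protocadherins made up 56 of the 88 members, all on chromosome 18, where 61 of the 93 genes of the rule lie. The alpha and gamma genes each join a variable first exon to constant exons that their cluster shares, and neighbouring variable exons are much alike. How reads of shared or alike sequence were counted is not given in the sources used here, so levels of single cluster genes are uncertain and sums are given with them. Summed alpha genes were at 3109, 2634, 3129 and 2875 normalized counts, and summed gamma genes at 12261, 12502, 12585 and 11081. Summed beta genes, which have no constant exons, were at 10427, 11527, 10522 and 10732. In each cluster the groups overlapped.

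In the alpha cluster 13 of 15 genes were described, 8 with a log2 fold change above 0 and 5 below, with a median of 0.09. The sign of that median depended on 1 library, as it was -0.02 with WT library b left out and 0.17 with WT library a left out. Pcdhac2, a C-type alpha gene needed in mice for even spacing of serotonergic axons, held between 35.4% and 38.1% of the cluster's normalized counts in every library. It was at 1185, 949, 1127 and 1017, with a log2 fold change of 0.01 (SE 0.14). Pcdha7 (312, 271, 317 and 319) and Pcdha2 (265, 179, 242 and 241) came next by count. Both Opn4-DTA/DTA libraries of Pcdha7 lay above WT by a step of 0.13 on the log2 scale (SE 0.15), while Pcdha2 overlapped.

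The members with the lowest p of all were a pair of weakly expressed alpha genes. Pcdha1, the first alternate promoter of the cluster, was at 47.6, 39.8, 67.2 and 67.5 normalized counts, with both Opn4-DTA/DTA libraries above both WT libraries. Its log2 fold change was 0.62 (SE 0.25, 95% interval 0.03 to 1.20) with an unadjusted limma p of 0.0410 and an unadjusted p of 0.0757 in the authors' deposited table. Pcdhac1, the other C-type alpha gene, was at 97.5, 78.0, 121 and 125, or 3.14%, 2.96%, 3.87% and 4.34% of the cluster. That is a log2 fold change of 0.49 (SE 0.21), with an unadjusted p of 0.0517 in limma. Neither passed the adjusted test, and both kept their direction under each scaling. With 1 library left out the log2 fold change ran from 0.49 to 0.74 for Pcdha1 and from 0.33 to 0.65 for Pcdhac1. Because the groups do not overlap in these genes, leaving out 1 library could not turn the direction.

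Some alpha genes differed more between libraries of 1 genotype than between genotypes. Pcdha8 was at 16.2, 18.4, 4.37 and 18.4 normalized counts, so that a single Opn4-DTA/DTA library set its log2 fold change of -0.84 (SE 0.63). Pcdha6 was at 162, 144, 245 and 107, and the ratio of Opn4-DTA/DTA library a to library b was 2.28. Pcdha9 was at 214, 185, 275 and 184. Of the rest, Pcdha10 and Pcdha11 lay below WT in both Opn4-DTA/DTA libraries, by -0.25 (SE 0.19) and -0.13 (SE 0.20) on the log2 scale, and Pcdha3, Pcdha5 and Pcdha12 overlapped.

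The beta cluster had 21 of 22 genes described, 7 with a log2 fold change above 0 and 14 below, with a median of -0.03 (-0.15 without WT library a). Beta protocadherins have no shared tail and act with the other clusters at the cell surface. Pcdhb17 had the highest count, at 1279, 1488, 1246 and 1284, which was between 11.8% and 12.9% of the cluster. The table gives it the location of Pcdhb14, and RefSeq lists it as another name of that gene, so its locus is uncertain. Pcdhb16 (845, 1162, 923 and 1019) and Pcdhb9 (1052, 839, 897 and 1001) followed, and in both the WT libraries lay farther apart than the Opn4-DTA/DTA libraries.

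Pcdhb8 and Pcdhb12 had the lowest p of the beta genes. Pcdhb8 was at 318, 314, 230 and 286 normalized counts, or -0.30 as a log2 fold change (SE 0.17, limma unadjusted p = 0.111), which became -0.14 with Opn4-DTA/DTA library a left out and -0.46 with library b of that group left out. Pcdhb12 was at 404, 407, 343 and 348, or -0.23 on the log2 scale (SE 0.13, limma unadjusted p = 0.123). Pcdhb5 was at 272, 295, 218 and 254. In each of these 3 genes, and in Pcdhb11 and Pcdhb13, both Opn4-DTA/DTA libraries were below both WT libraries, which makes 5 of 21 (23.8%) against 12.3% of all genes. Only Pcdhb14 lay above in both, and the cluster shares a locus, so its genes are not independent of each other.

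All 22 gamma genes were described, 5 with a log2 fold change above 0 and 17 below, with a median of -0.10. That direction rested on 1 library, since the median turned to 0.01 once Opn4-DTA/DTA library b was left out and was -0.23 when library a of that group was left out instead. Between the Opn4-DTA/DTA libraries, a was above b in 21 of 22 gamma genes, with a median log2 ratio of 0.29, whereas the WT libraries had a median log2 ratio of 0.01. In the beta cluster the Opn4-DTA/DTA order was mostly the opposite, with b above a in 14 of 21 genes.

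The C-type gamma genes differed from each other in level. Pcdhgc3 was at 3445, 3618, 3501 and 3375 normalized counts and held between 27.8% and 30.5% of the cluster. Pcdhgc4, the gamma isoform that in mice is needed for neuron survival, was at 1679, 1757, 1732 and 1629, between 13.7% and 14.7% of the cluster. For both, the 95% intervals of the log2 fold change were narrow, from -0.25 to 0.17 for Pcdhgc3 and from -0.26 to 0.20 for Pcdhgc4. Pcdhgc5, known to come on late in brain development, was at 92.8, 103, 78.6 and 75.7, below WT in both Opn4-DTA/DTA libraries by a log2 fold change of -0.33 (SE 0.21, limma unadjusted p = 0.153).

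Among the A-type and B-type gamma genes, those with the lowest p did not share a direction. Pcdhga1 was at 216, 216, 256 and 261 normalized counts, above WT in both Opn4-DTA/DTA libraries (log2 fold change 0.26, SE 0.15, limma unadjusted p = 0.130). Pcdhga9 was at 182, 236, 183 and 147, and Pcdhga3 at 650, 727, 658 and 508. In both genes the groups overlapped, and Opn4-DTA/DTA library b was the lowest. Pcdhgb6, the highest of the B type, was at 693, 724, 714 and 604. The lowest gamma gene, Pcdhgb8, was between 19.4 and 41.3 in the 4 libraries.

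**Figure D4:**
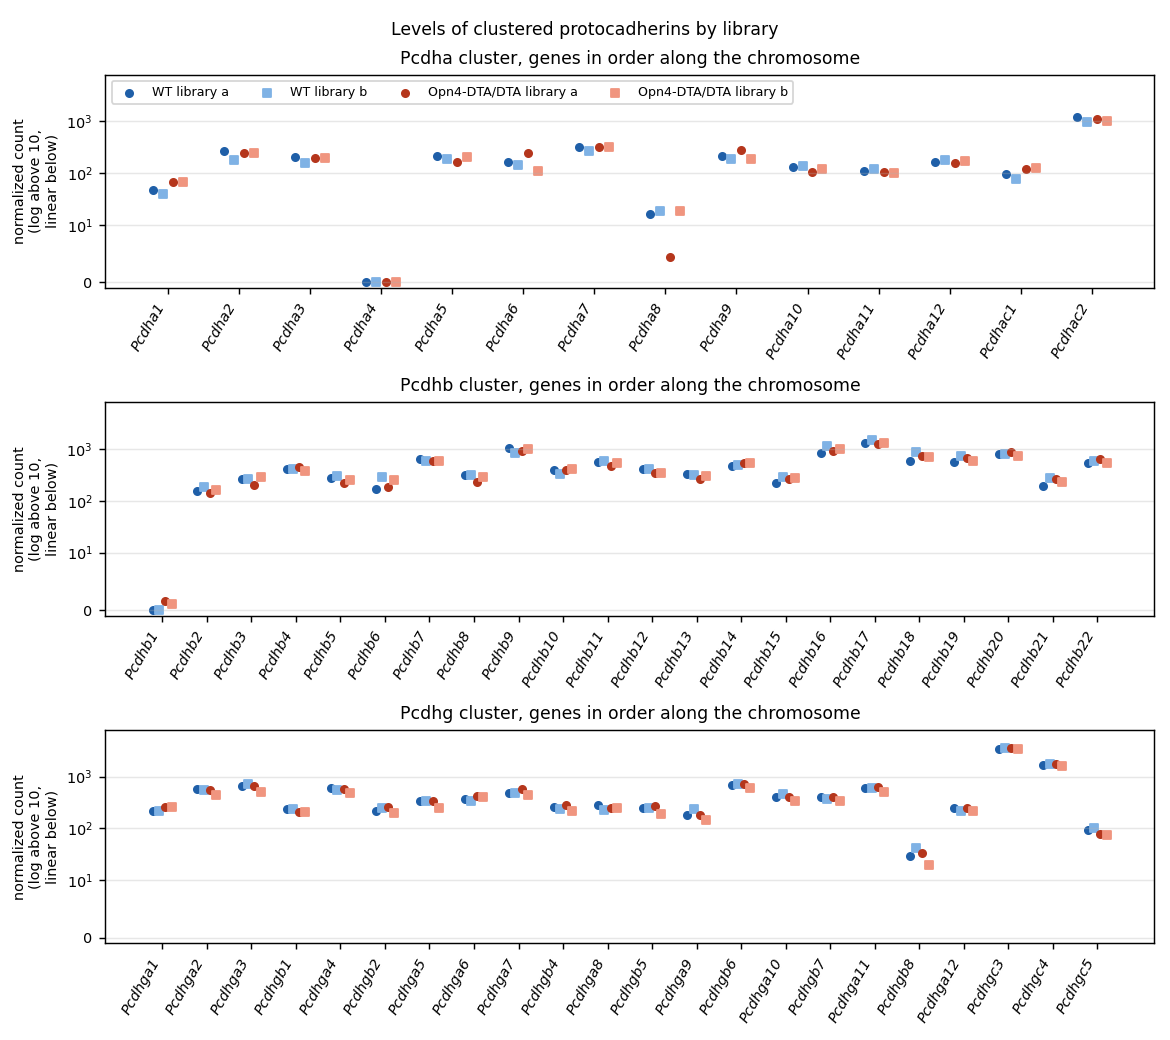
Normalized counts per library of the genes of the alpha, beta and gamma clusters, in their order along chromosome 18, with 1 point per library on an axis that is logarithmic above 10 and linear below. Pcdha4 and Pcdhb1, both under the mean of 10, are drawn too. Pcdhac2, Pcdhb17 and Pcdhgc3 lead their clusters in all 4 libraries, and the groups overlap for most genes.

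Compared per kilobase of exons that belong to 1 gene alone (GENCODE M21), Pcdhgc3 stood first, with a mean of 1357 normalized counts per kilobase over the 4 libraries. Cdh11 (724), Pcdhgc4 (585) and Cdh4 (489) followed, and the ranges of these 4 genes over the libraries did not overlap. No test was made between genes. For Pcdhgc3 and Pcdhgc4 any counted reads from the shared constant exons are divided by the short variable exon only, which raises the value. Pcdh15 (389), Pcdh7 (371), Pcdh9 (366), Pcdh10 (360) and Pcdhac2 (353) came next, with ranges that overlapped. The deposited location of Pcdh10 ends at 45383035 on chromosome 3, but its GENCODE gene ends at 45435623. Its 15888 exonic bases thus include sequence outside the deposited location. Its value may be too low, and its place in this order is uncertain. The same holds for Pcdhb14, with 8695 exonic bases and ends at 37451094 as deposited and 37456350 in GENCODE. It also holds for Pcdh15, deposited from 73821867 to 74507600 on chromosome 10 but in GENCODE from 73099342 to 74649737. Cdh12 and Cdh18, among others, likewise have GENCODE genes that reach beyond the deposited location. Cdh7 and Pcdhb17 have no value on this scale because of their uncertain location.

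**Figure D5:**
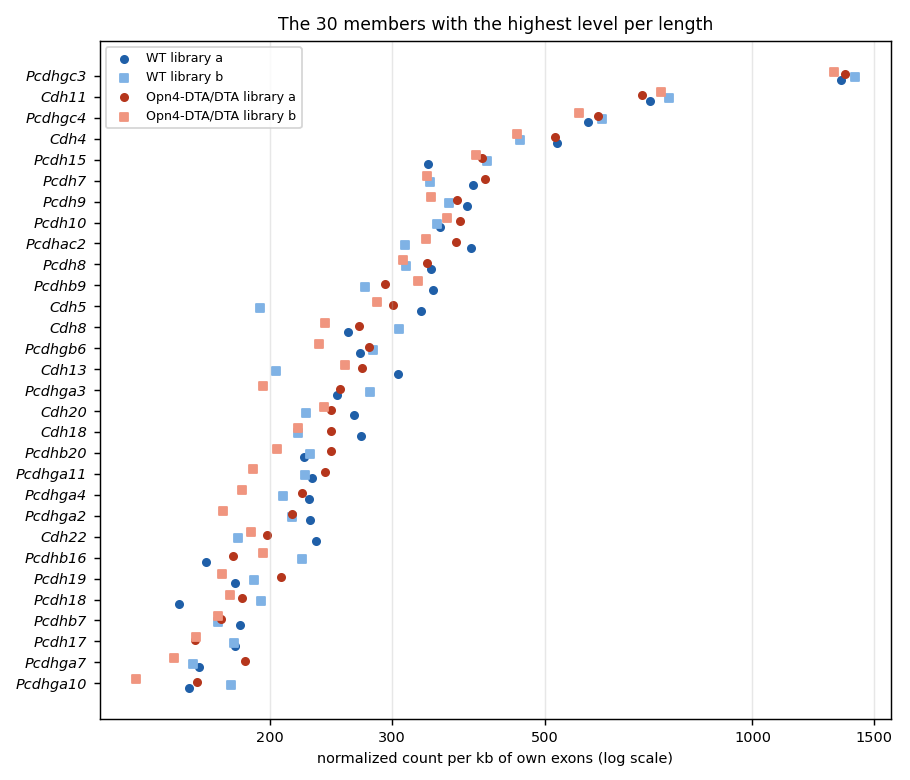
Normalized count per kilobase of own exons (log axis) in each library for the 30 members with the highest mean on that scale. Pcdhgc3 lies between 1314 and 1409, and the next, Cdh11, between 692 and 757. The places of Pcdh10, Pcdh15 and Cdh18 are uncertain, because the lengths used include bases outside their deposited locations.

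The 5 members under a mean of 10 were Cdh16, Cdh17, Pcdha4, Pcdha4-g and Pcdhb1. Cdh16, known from kidney, had 0 counts in all libraries. Cdh17, known from intestine, had 3, 2, 9 and 4 counts. Pcdhb1 had 0, 0, 3 and 1 counts, and no fold is given at this depth. Pcdha4 and Pcdha4-g were at 0 in all libraries, although neighbouring alpha genes were not. In GENCODE only 93 of the 5367 exonic bases of Pcdha4 belong to it alone.

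Partners of the cadherins did not pass the test either. Of 54 genes listed for their roles, 52 were in the table and 48 were tested, of which 21 had a log2 fold change above 0 and 27 below, with 0 called in either direction. The lowest p was that of Clstn3, a calsyntenin (an atypical cadherin of synapses), at 3304, 3717, 2856 and 3094 normalized counts. Both Opn4-DTA/DTA libraries were below WT, with a log2 fold change of -0.24 (SE 0.10, limma unadjusted p = 0.0523). Cdhr1, the photoreceptor cadherin at the base of the outer segment, was at 73840, 70559, 65039 and 62467, or -0.18 on the log2 scale (limma unadjusted p = 0.134). Summed rod markers were at 574329, 492269, 467650 and 478401 and all 8 had a log2 fold change below 0, and the part of rods in the value for Cdhr1 was not tested.

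No gene of the other partner roles passed either. Myo7a, the motor of the tip link complex that is also expressed in pigment epithelium, was at 2544, 2842, 2504 and 2408, with a log2 fold change of -0.13 (limma unadjusted p = 0.230). Among the catenins, Ctnnbip1, an inhibitor of beta-catenin, had the lowest p (0.344, log2 fold change 0.09). For genes of protocadherin promoter choice and signalling, Ptk2b, a kinase inhibited by alpha and gamma protocadherins, was at 0.32 on the log2 scale (limma unadjusted p = 0.286). Ctcf, the factor that loops enhancers to cluster promoters, was at 5934, 6486, 6046 and 5733. Of the proteases that shed cadherins, Psen2 was at -0.13 on the log2 scale and Adam10 at 0.01.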

How the data were processed

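Per the labels' protocols, retinal RNA was made into directional polyA libraries and read on a HiSeq2500. The submitters' processing notes name FastQC, STAR, HTSeq, DESeq2 (the authors' tools) and the build mm10, giving neither roles nor versions. Per the file headers, the authors' deposited table gives for each group a signal, the mean over 2 libraries of counts divided by a size factor, and for the contrast a log2 fold change with an error, a test score and p-values, plain and adjusted. The deposited log2 fold changes are shrunken toward 0.

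Each mean above 0 (17757 in WT, 18327 in Opn4-DTA/DTA) was solved for 1 pair of whole counts at a relative tolerance of 3e-13. The procedure was checked on 10000 made-up pairs per group, all recovered. Genes with a mean of at least 10 were tested with limma 3.58.1 in R 4.3.3 on log2(normalized count + 1) with a variance trend and Benjamini-Hochberg adjustment over 15003 genes at 0.05. The script was tested on simulated data. Alternatives were other scalings, pseudocounts and filters, no variance trend, and leaving out each library.

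Named members are the 12 with the lowest p, the 3 highest of each family and those of prior interest in retina. Others are named to describe their family or because a value stood out. Not every member is named, and the rest enter through the counts, medians and sums of their families. The members and lists were chosen with earlier results of these data known. Lengths are from GENCODE M21 (GRCm38), and promoters from RefSeq (GRCm38.p6). The level of 3 counts given per library covers counting error only.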

Additional observations from a re-analysis of the deposited data

How the results depend on the processing

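Over 7 other settings with all libraries (other scalings and pseudocounts, no filter, no variance trend), 257 of 259 values of the 37 named members kept their direction and their side of the threshold. The exceptions, with scaling by library totals, were log2 fold changes of 0.016 for Cdh4 and 0.0064 for Cdh9. That scaling moves the median of all genes to 0.028, and gave sums of 10910 for the beta cluster in Opn4-DTA/DTA library b and 12260 for the gamma cluster in WT library b. Genes past the threshold numbered 3, against 0 without a variance trend and from 10 to 306 with 1 library left out. Members past it numbered 0 with all libraries. Fits with 1 library left out assume that the lone library varies like the others, so only effect sizes are given for members from them. Median log2 fold changes then ran from -0.066 to 0.012 over all members, -0.064 to 0.073 over type I and II cadherins (0.016 with library totals), -0.019 to 0.081 over solitary protocadherins, -0.024 to 0.17 over the alpha, -0.15 to -0.0058 over the beta and -0.23 to 0.012 over the gamma cluster. Of 148 such values for named members 27 turned direction, in 17 members, and of the other 20 members 12 moved by over 1.5 times: Pcdhb8 (-0.46 to -0.14), Pcdh12 (0.092 to 0.62), Pcdhb5 (-0.38 to -0.16), Pcdhga9 (-0.52 to -0.15), Pcdhga3 (-0.44 to -0.063), Cdh8 (-0.27 to -0.027), Pcdh10 (0.042 to 0.10), Pcdh9 (-0.13 to -0.0056), Pcdha7 (0.028 to 0.23), Pcdhb17 (-0.23 to -0.015), Pcdhgc3 (-0.074 to -0.0035) and Cdh6 (0.061 to 0.14). The lowest and highest log2 fold changes of those 17 with 1 library left out were Cdh4 -0.10 to 0.078, Cdh3 -0.77 to 0.073, Cdh11 -0.085 to 0.0067, Cdh5 -0.17 to 0.60, Cdh13 -0.21 to 0.38, Cdh26 -0.17 to 0.048, Pcdh7 -0.12 to 0.16, Pcdh15 -0.040 to 0.24, Pcdh20 -0.089 to 0.14, Pcdhac2 -0.15 to 0.17, Pcdha2 -0.13 to 0.43, Pcdhb16 -0.26 to 0.20, Pcdhb9 -0.15 to 0.18, Pcdhgc4 -0.076 to 0.012, Pcdhgb6 -0.23 to 0.012, Cdh9 -0.19 to 0.14 and Pcdh19 -0.11 to 0.17. The causes were not tested. The planned count tests with edgeR and DESeq2 are not reported here. No paired analysis was possible because the labels give the groups no shared replicate numbers and the recovered libraries carry none. Counting error limits members with few counts, such as Pcdha8 and Cdh26.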
